A study of Rattus norvegicus with 8 samples.

Results

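Undifferentiated spermatogonia are the testis germ cells that include the stem cells, and a small set of regulators and markers sets them apart. The genes described here are 10 of that set outside the GDNF receptor pathway: Zbtb16, Sall4, Foxo1, Taf4b, Utf1, Neurog3, Lin28a, Nanos3, Uchl1 and Epcam. They were taken from the array by matching each probe's accession to a rat RefSeq symbol. Of the 10 genes, 7 had a matched probe among the 15154 genes named on the array, and 6 passed the filter on dim probes and stood among the 10236 genes tested. Sall4, Foxo1 and Taf4b had no matched probe and were not analysed here. Neurog3 had a probe that did not pass the filter, so its values are given with no test.

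The arrays measured RNA of cells sorted by flow cytometry for CD9, a surface tetraspanin of spermatogonia and of other cells. The cells came from testes of Sprague-Dawley rats that all carry a GFP transgene expressed in germ cells, and the labels do not name its promoter. There were 2 groups of 4 one-colour Agilent arrays: young rats of 4 months and aged rats of 21 months. The labelled RNA came from an 18 ng input per array. At issue is how transcript levels in the sorted cells differed with age. The labels do not say whether the arrays came from separate animals or pools, so the p-values reflect only how much these arrays vary, and that variation may be technical.

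In the undifferentiated state, transcription factors such as ZBTB16 and SALL4 hold back differentiation, and FOXO1, which AKT signalling keeps out of the nucleus, supports the expression of stem cell genes. RNA-binding proteins act beside them: LIN28A blocks the maturation of let-7 microRNAs, and NANOS proteins repress messages through the CCR4-NOT deadenylase. UCHL1 and EPCAM are markers used to identify or enrich these cells in rodents.

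Levels are given as the log2 signal relative to the 75th percentile of the non-control probes of the same array, called the relative log2 signal below, so 0 is that percentile. They are compared within a gene and never between genes, because probes differ in brightness. On each array between 63.0% and 72.0% of the 30367 probes passed the scanner software's mark for well above background, and no spot was saturated, and the 75th percentile was 326 to 524 intensity units. A single slide (1), scanned once, carried all arrays. Young arrays occupied its row 1 and aged arrays its row 2, so row and age cannot be told apart. Young replicate 1 stood apart from the other young arrays, with a mean correlation to them of 0.966 across genes, against 0.983 to 0.985 for the other young arrays. Results of the regulators are therefore given with and without it. Tests of the other gene lists are given with it only. Without it 36.9% of all genes were called at a limma adjusted p under 0.05, against 0.655% with it. The absence of calls in those lists may therefore not hold without this array, and their calls without it were not counted. All 7 germ cell genes listed were well above background on all arrays. Of these 5 were higher and 2 lower in aged cells, with a median of 0.23, and Tex101 was called higher. Ddx4, the germ cell helicase (−0.21 ± 0.19 on the log2 scale, aged minus young, SE, limma adjusted p = 0.448), and Cd9 itself (−0.16 ± 0.16, limma adjusted p = 0.492) were not called different. Transcripts of other cells were present too, spermatid genes among them. In a bulk sample, fewer cells of a type and less RNA per cell cannot be told apart.

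None of the 6 tested regulators passed the test between aged and young cells. Epcam had the clearest difference, 1.37-fold higher in aged cells with groups that did not overlap, but its adjusted p was 0.0561. Zbtb16, Utf1, Lin28a and Nanos3 had lower mean values in aged cells, by 0.06 to 0.23 on the log2 scale, and Uchl1 a higher one, by 0.13. In each of these 5 genes the highest signal of all 8 arrays was that of young replicate 1. On this scale the median of all genes tested was a change of 0.11.

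In numbers, 0 of the 6 genes were called (limma, Benjamini-Hochberg adjusted p under 0.05 over 10236 genes), and 1 of 6, Epcam, had an unadjusted p under 0.05. Over all genes 0.655% were called and 31.4% had an unadjusted p under 0.05. Groups without overlap, higher in aged cells, were found in 1 of 6 regulators against 10.2% of all genes, and lower in 0 of 6 against 4.12%. Values below 0 were found in 4 of 6 regulators against 36.6% of all genes, and the median change of the 6 was −0.08 against 0.11 for all genes.

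Zbtb16 encodes PLZF, a zinc-finger repressor needed to keep the stem cell pool. Its relative log2 signal in young replicates 1 to 4 was −1.72, −2.46, −2.37 and −2.38, and in aged replicates 1 to 4 it was −2.37, −2.54, −2.25 and −2.14. Young replicate 1 lay above all other arrays, and the remaining young and aged arrays overlapped. The change was −0.09 ± 0.18 (SE, n = 4 per group, limma adjusted p = 0.739, 95% interval −0.50 to 0.31), and the exact two-sided permutation p was 0.771. Without young replicate 1 it was 0.08 (adjusted p = 0.598). The duplicate spots of this probe differed by 0.01 to 0.31 within an array with a median of 0.08, which covers spot error only. Young replicate 1 was 0.69 above the mean of the other young arrays. With that array set aside, the young values had a standard deviation of 0.05.

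Utf1 encodes a chromatin-associated factor of pluripotent cells and early spermatogonia. Its relative log2 signal was −0.73, −1.39, −1.28 and −1.55 on the young arrays and −1.67, −1.44, −1.32 and −1.44 on the aged arrays. Young replicate 1 was the highest array, and the other young arrays overlapped the aged ones. The change was −0.23 ± 0.18 (SE, limma adjusted p = 0.392, 95% interval −0.63 to 0.17, exact permutation p = 0.314), and −0.06 without young replicate 1 (adjusted p = 0.698). A single spot per array measured this gene, so its error within an array is not known.

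Neurog3 encodes a basic helix-loop-helix factor that marks undifferentiated cells on their way to differentiation. Its signal lay at the detection limit, at 8.03 to 17.0 intensity units. Of its spots, 4 of 8 were well above background on the young arrays and 3 of 8 on the aged arrays. The relative log2 signals were −4.60, −4.57, −5.46 and −5.67 for young cells. Aged cells read −4.98, −4.95, −5.13 and −4.97, so the young arrays spanned the whole aged range. Duplicate spots differed by up to 1.68 within an array. The difference of the means was 0.07, well within the young standard deviation of 0.57, and no difference was detectable at this signal. It was 0.22 without young replicate 1, ran from −0.13 to 0.24 with any 1 array left out, and was −0.39 with spike-in scaling.

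Lin28a encodes the RNA-binding protein that keeps let-7 precursors from maturing. The brightest of its 3 probes gave −0.30, −0.73, −0.96 and −0.78 for the young arrays, while the aged arrays read −0.68, −0.80, −0.80 and −0.74. All aged values fell inside the young range, which young replicate 1 widened at the top. The change was −0.06 ± 0.14 (SE, limma adjusted p = 0.801, 95% interval −0.38 to 0.27, exact permutation p = 0.771), and 0.07 without young replicate 1 (adjusted p = 0.549). The other probes gave −0.16 and −0.19, the same direction, from signals of only 28.8 to 49.1 and 17.0 to 27.7 intensity units, with overlapping groups in both.

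Nanos3 encodes a translational repressor of germ cells. Young arrays read 3.03, 2.46, 2.51 and 2.60 and aged arrays 2.38, 2.41, 2.51 and 2.46 on the relative log2 scale. Aged replicate 3 lay at the level of young replicate 3 and above young replicate 2, so the groups overlapped narrowly. Its change of −0.21 ± 0.14 (SE, limma adjusted p = 0.309, 95% interval −0.52 to 0.10) had an exact permutation p of 0.0857, and it shrank to −0.09 without young replicate 1 (adjusted p = 0.436). Duplicate spots differed by at most 0.07.

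Uchl1 encodes a neuronal-type ubiquitin hydrolase, a classic marker of spermatogonia. The young arrays gave 6.25, 5.81, 5.73 and 5.86 and the aged arrays 6.13, 6.07, 6.02 and 5.94. Every aged value stood above young replicates 2, 3 and 4 and below young replicate 1. The change was 0.13 ± 0.13 (SE, limma adjusted p = 0.527, 95% interval −0.17 to 0.42, exact permutation p = 0.343). Without young replicate 1 it was 0.24 and still missed the threshold (adjusted p = 0.0666), and its direction turned with quantile scaling (−0.07). Spike-in scaling gave −0.33 by shifting all genes alike, and relative to the median gene Uchl1 stayed at 0.02.

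Epcam encodes an epithelial adhesion molecule of the cell surface. Its relative log2 signal was 1.33, 1.09, 1.17 and 1.11 on the young arrays and 1.66, 1.75, 1.49 and 1.63 on the aged arrays. All 4 aged values exceeded all 4 young values, with young replicate 1 the highest of its group here too. The change was 0.46 ± 0.11 (SE, limma adjusted p = 0.0561, 95% interval 0.22 to 0.70), or 1.37-fold with an interval of 1.16 to 1.62. The exact permutation p of 0.0286 is the smallest that 4 against 4 arrays can give. By its unadjusted p of 0.00186, Epcam ranked 337 of 10236 genes, within the first 3.29%. Without young replicate 1 the change was 0.51 and passed the test (adjusted p = 0.00767), as did 36.9% of all genes under that setting. Over the alternatives that kept all arrays its adjusted p ranged from 0.00406 to 0.991. Like Utf1, this gene has a single spot per array.

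**Figure D1:**
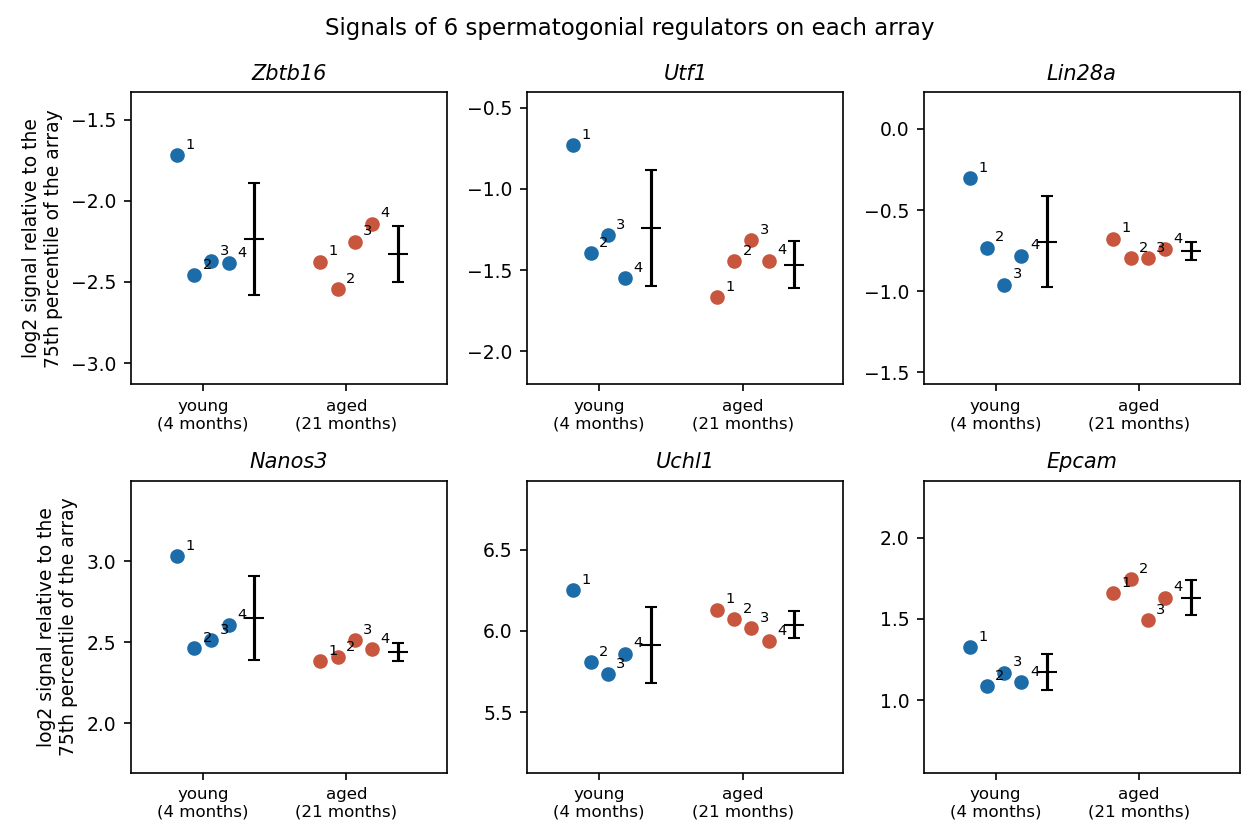
Relative log2 signal of the 6 tested regulators (vertical axis, log2 signal minus the 75th percentile of the array, same span in each panel) on the 4 young and 4 aged arrays, each point an array with its replicate number and black bars the mean ± SD of a group. Young replicate 1 is the highest young point in all 6 panels, and only in Epcam do the groups not overlap.

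**Figure D2:**
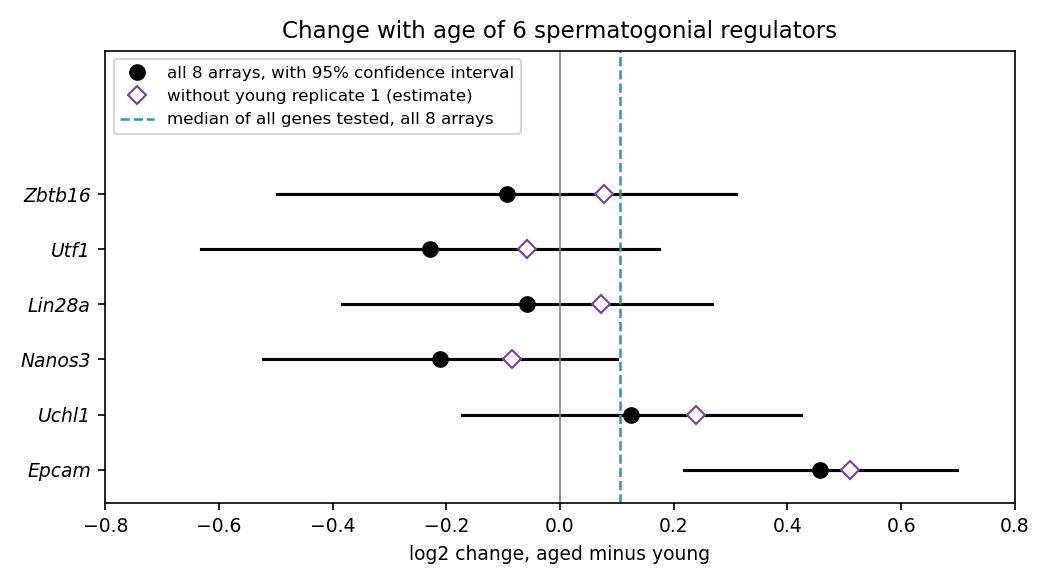
Change with age of each tested regulator (horizontal axis, log2, aged minus young). Black points and lines show the limma estimate and its 95% confidence interval over all 8 arrays, open diamonds the estimate without young replicate 1, and the dashed line the median gene at 0.11. The intervals of all genes except Epcam include 0, and Zbtb16 and Lin28a cross to the right of 0 when that array is set aside.

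Promoter windows are shown for 3 genes, Epcam with the highest change and Utf1 and Nanos3 with the lowest, so that the genes at the ends of the range can be compared by sequence. The sequences are RefSeq windows of assembly GRCr8, 300 bases around an annotated start with the last 50 bases downstream of it, written 5′ to 3′ on the gene's strand. Capitals mark the GC box GGGCGG on either strand, where overlapping copies run together. The Epcam window lies at chr6:12649629-12649928 on the minus strand, the Utf1 window at chr1:204169704-204170003 on the plus strand and the Nanos3 window at chr19:40890022-40890321 on the plus strand. The Nanos3 window is not placed at the outermost start of the gene record in that annotation.
Epcam: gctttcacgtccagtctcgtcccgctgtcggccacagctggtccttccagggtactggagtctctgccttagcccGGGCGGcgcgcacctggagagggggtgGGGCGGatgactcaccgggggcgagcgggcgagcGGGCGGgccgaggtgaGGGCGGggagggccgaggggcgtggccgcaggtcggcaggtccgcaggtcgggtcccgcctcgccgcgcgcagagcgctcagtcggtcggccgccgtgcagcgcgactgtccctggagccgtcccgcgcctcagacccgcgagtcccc
Utf1: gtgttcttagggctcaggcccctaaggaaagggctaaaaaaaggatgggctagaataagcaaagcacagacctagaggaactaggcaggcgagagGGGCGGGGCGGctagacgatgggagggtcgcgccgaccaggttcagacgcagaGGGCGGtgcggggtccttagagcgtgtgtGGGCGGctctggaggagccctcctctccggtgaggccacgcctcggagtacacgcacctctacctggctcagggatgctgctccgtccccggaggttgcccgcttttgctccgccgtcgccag
Nanos3: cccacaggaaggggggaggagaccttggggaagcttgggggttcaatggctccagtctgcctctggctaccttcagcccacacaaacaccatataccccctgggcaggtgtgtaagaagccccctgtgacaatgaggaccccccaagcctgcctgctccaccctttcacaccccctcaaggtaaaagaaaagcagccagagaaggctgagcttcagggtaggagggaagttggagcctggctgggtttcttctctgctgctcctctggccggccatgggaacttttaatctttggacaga
The Epcam window was 75.7% G and C with 40 CpG dinucleotides and 4 GC boxes, and the Utf1 window was 64.0% G and C with 22 CpG dinucleotides and 4 GC boxes. The Nanos3 window had 57.3% G and C, a single CpG dinucleotide (1) and 0 GC boxes. Over all 33469 rat windows of this length the median was 51.7% G and C and 7 CpG dinucleotides, and 33.1% held a GC box. The FOXO motif TGTTTAC, searched on both strands, was in 0 of these 3 windows and in 3.78% of all windows. The E-box CANNTG, the motif of basic helix-loop-helix factors such as NEUROG3, occurred 2 times in the Epcam window, 1 time in Nanos3 and 0 times in Utf1, and in 72.1% of all windows. Such a match describes the letters of the window only.

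Young replicate 1 was the highest young array in all 6 tested regulators. Over all genes tested this array was the highest of the young ones in 55.3%, and its median excess over the mean of the other young arrays was 0.19 on the log2 scale. The excess was 0.69 for Zbtb16, 0.68 for Utf1, 0.52 for Lin28a, 0.50 for Nanos3, 0.45 for Uchl1 and 0.20 for Epcam. These values lay at percentiles 97.4, 97.2, 90.6, 89.3, 84.5 and 52.0 of the same difference over all genes. The spread of the young arrays exceeded that of the aged arrays in 6 of 6 regulators, against 63.0% of all genes, and in 2 of 6 without young replicate 1, against 31.4%. Without that array, change values below 0 were found in 2 of 6 regulators against 33.2% of all genes, an unadjusted p under 0.05 in 2 of 6 against 49.3%, and groups without overlap, higher in aged cells, in 2 of 6 (Epcam and Uchl1) against 29.9%. With every gene set to a mean of 0 across arrays, the 6 genes averaged 0.38 in young replicate 1. The other young arrays spanned −0.13 to −0.12 and the aged arrays −0.02 to 0.02.

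The summed markers of the other cell types below, endothelial cells excepted, were lower in young replicate 1 than in the other young arrays. The summed signal of 13 spermatid markers on the array, in multiples of each array's 75th percentile, was 335 in young replicate 1. It spanned 614 to 819 across the remaining young arrays and 245 to 495 across aged arrays. For 12 markers of peritubular myoid and stromal cells it was 2.99, then 11.2 to 12.6 and 1.79 to 3.76 in the same order, and for 12 macrophage markers 8.51, 25.3 to 27.6 and 5.88 to 17.7. Of the tested markers, 12 of 13 for spermatids, 9 of 10 for stromal cells and 7 of 10 for macrophages were well above background on all arrays, and each of these had a lower value in aged cells. The rest passed the filter only through the young arrays, and such genes tend to be lower in aged cells by that choice. With young replicate 1 included, none was called (limma, 0 of 13, 0 of 10 and 0 of 10), and 7, 10 and 3 had an unadjusted p under 0.05, against 31.4% of all genes. The smallest p-values belonged to Acr, the acrosomal protease (−1.10, limma adjusted p = 0.0531), and Tekt2, a tektin of the sperm tail (−1.97, 0.0561), to the collagens Col1a1 (−0.90, 0.0542) and Col3a1 (−1.87, 0.0561), and to the macrophage genes Adgre1 (−1.97, 0.0561) and Aif1 (−1.25, 0.0964). Col3a1 and Adgre1 passed only through the young arrays. Lum, a stromal proteoglycan, was well above background on 0 arrays, and every spermatid and macrophage marker with a probe was so on at least 1. In the same order of arrays, the sums were 4.19, 9.23 to 9.64 and 5.53 to 13.2 for Sertoli cells (11 genes). They were 0.99, 1.27 to 2.13 and 0.86 to 1.87 for Leydig cells (7 genes). Such sums mostly follow the brightest probes. In the Sertoli list this was Clu (young mean 2.60 in relative log2 signal), with the other tested genes at −4.09 to −0.40. In the spermatid list these were Tnp1, Prm1, Tnp2 and Odf2 (young means 6.68 to 7.40). For endothelial cells (7 genes) they were 1.16, 1.12 to 1.31 and 0.89 to 1.03. Of the Leydig list Cyp17a1 and Hsd3b1, enzymes of steroid synthesis, were at −0.29 and −0.49 (limma adjusted p = 0.416 and 0.524), and of the endothelial list Kdr, a VEGF receptor, and Eng, a TGF-beta co-receptor, at −1.02 and −0.71 (limma adjusted p = 0.0871 and 0.119). In both lists 3 of 4 tested genes were lower and 1 higher in aged cells. The higher genes were Cyp11a1 (0.43, limma adjusted p = 0.643) and Cdh5 (0.10, limma adjusted p = 0.715). Cyp11a1 passed the filter only through the aged arrays. The part of these cells in the values of the regulators was not tested.

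**Figure D3:**
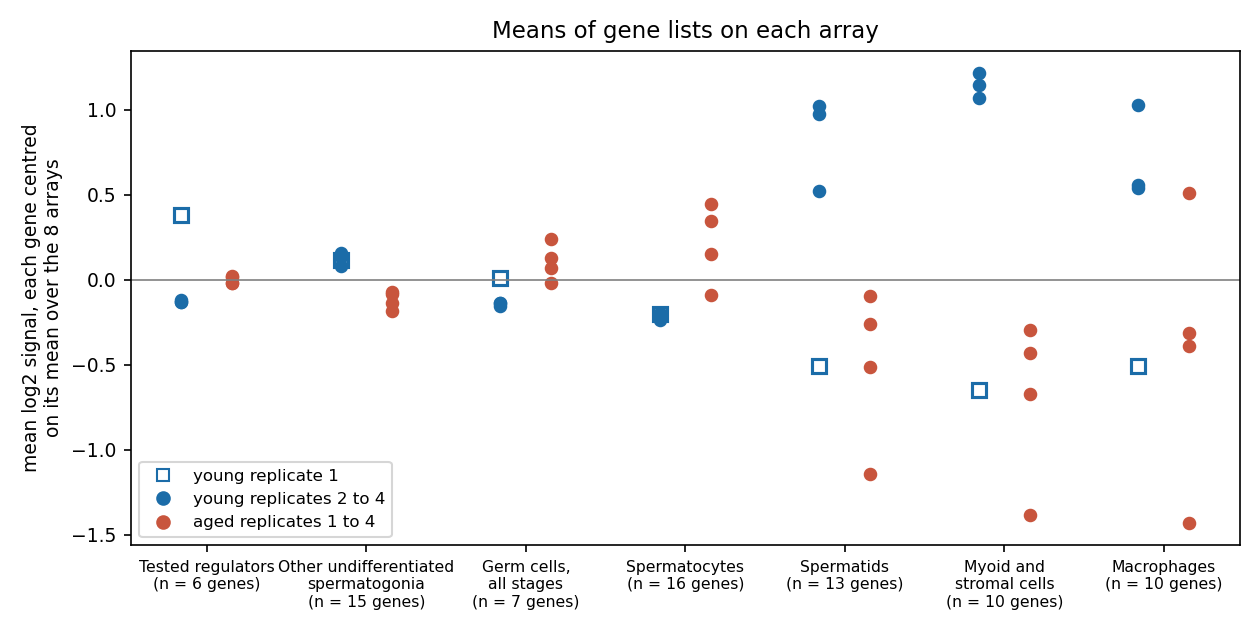
Mean log2 signal of the tested regulators and of 6 marker lists on each array (vertical axis, with every gene set to a mean of 0 across arrays). Blue marks are young arrays, red marks aged arrays and the open square young replicate 1, which is highest for the regulators at 0.38 and, for spermatid and stromal genes, lies within the range of the aged arrays.

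Of 24 other markers of undifferentiated spermatogonia listed, 20 were on the array and 15 were tested, and 11 of the 15 had lower values in aged cells (median −0.16, against 0.11 for all genes). With young replicate 1 included, none was called in limma (0 of 15), and 5 (33.3%) had an unadjusted p under 0.05, against 31.4% of all genes. Values below 0 made up 73.3% of the 15, against 36.6% of all genes, and 1 of the 15 passed the filter only through the young arrays. They averaged 0.11 in young replicate 1, a value within the 0.08 to 0.16 of the remaining young arrays, and −0.18 to −0.07 across aged arrays. The smallest p-values were those of Mcam, an adhesion molecule that vessels and pericytes also carry (−0.74, limma adjusted p = 0.0707), and Gfra1, the GDNF co-receptor (−0.89, limma adjusted p = 0.0742). In both genes the value of young replicate 1 was the lowest of the young arrays. Groups without overlap, lower in aged cells, were found in 1 of the 15, against 4.12% of all genes. This was Ret (−0.41, limma adjusted p = 0.104), in which young replicate 1 was the highest array. It was at 0.05 there, against −0.55 to −0.36 on the other young arrays. Pax7, Tspan8 and Thy1, also on the list, were well above background on 0 arrays.

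Among genes of later stages, 8 of 12 listed for differentiating spermatogonia were tested and 0 were called in limma, with 2 (25%) at an unadjusted p under 0.05, against 31.4% of all genes (median 0.13). Ccnd2, a cyclin of proliferating spermatogonia, was −0.79 (limma adjusted p = 0.0705) and Rec8, the meiotic cohesin subunit, 0.47 (limma adjusted p = 0.0934), both with groups that did not overlap. Of 7 germ cell genes expressed through many stages 1 was called, against 0.655% of all genes. It was Tex101, a surface glycoprotein of germ cells, which was higher by 0.75 ± 0.11 (SE, limma adjusted p = 0.0465). Dazl, a germ cell RNA-binding protein, was 0.52 higher (limma adjusted p = 0.0801). In the spermatocyte list 6 of 16 tested genes were called higher, against 0.498% of all genes. These were Msh5, Meiob, Syce1, Msh4, Sycp3 and Dmc1 (limma adjusted p = 0.0465 for each). An unadjusted p under 0.05 was found in 14 of 16, against 31.4% of all genes. The median was 0.77, with 12 of the 16 higher and 4 lower in aged cells. The 4 were Ccna1, a meiotic cyclin, at −1.54 (limma adjusted p = 0.0527, no overlap), Pgk2 and Ldhc, glycolytic enzymes of late spermatocytes and spermatids, at −1.02 and −0.94, and the chaperone gene Hspa2 at −0.39. In the Sertoli list 1 of 5 was called higher, against 0.498% of all genes. This was the homeobox gene Rhox5 (0.82 ± 0.13, SE, limma adjusted p = 0.0465), while Amh, Gata4, Wt1, Cldn11, Fshr and Amhr2 did not pass the filter on dim probes. Of the 5 tested, 3 were higher and 2 lower in aged cells, with a median of 0.06. The lower genes were Inhba at −0.99 (limma adjusted p = 0.124) and Dhh at −0.86 (limma adjusted p = 0.282). Both passed the filter only through the young arrays. The calls of Tex101, Rhox5 and the 6 spermatocyte genes were lost where 0 genes were called at all. That was the case without young replicate 3 or 4, without any 1 aged array, with no scaling and with the replicate block. It was also the case with no filter on dim probes and with unnamed probes tested too. Without young replicate 2 only 1 gene of all tested was called.

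Paralogs of the members were tested for 7 of 15 listed genes, and 0 were called in limma, with 2 (28.6%) at an unadjusted p under 0.05, against 31.4% of all genes. Uchl3, the close relative of Uchl1, was higher in aged cells by 0.37 with groups that did not overlap (limma adjusted p = 0.0855). Its relative log2 signal was 3.89, 3.50, 3.56 and 3.60 on the young arrays and 4.04, 4.04, 4.01 and 3.93 on the aged arrays. Sall1, a relative of Sall4, was 0.45 higher (limma adjusted p = 0.111) from a signal well above background on 3 of 4 young arrays. It counts among the genes with an unadjusted p under 0.05 but passed the filter only through the aged arrays. Such genes tend to be higher in aged cells by that choice. Nanos2, the paralog of Nanos3 that acts in the stem cells, changed by −0.24 (limma adjusted p = 0.235), close to the −0.21 of Nanos3. Its signal was weak (young mean −3.87 in relative log2 signal), though well above background on all arrays. Foxo3 and Foxo4, relatives of Foxo1, changed by 0.12 and −0.19 (limma adjusted p = 0.579 and 0.280).

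Genes that work with the members were tested for 42 of 51 listed, in 6 groups, and 0 were called in limma, with 9 of 42 at an unadjusted p under 0.05 against 31.4% of all genes. Higher values in aged cells were found in 34 of 42 (81.0%), against 63.4% of all genes, and the median was 0.12 against 0.11. TFIID, the promoter-binding complex that TAF4B joins, had 9 of 11 subunits higher, led by Taf12, the histone-fold partner of TAF4 proteins (0.60, limma adjusted p = 0.0674), and Taf1 (0.46, limma adjusted p = 0.0848). Taf12 was 0.42, 0.11, 0.15 and −0.31 on the young arrays and 0.74, 0.84, 0.65 and 0.55 on the aged arrays, without overlap. Of the Pumilio and CCR4-NOT genes, through which NANOS proteins repress messages, 6 of 7 were higher, with Cnot3 at 0.39 (limma adjusted p = 0.0941) and Cnot7 at 0.33 (limma adjusted p = 0.0964).

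The terminal uridylyl transferase Tut4, which LIN28A recruits to let-7 precursors, was 1.23, 1.04, 0.93 and 1.13 on the young arrays and 1.60, 1.58, 1.46 and 1.39 on the aged arrays. These groups did not overlap, and the change was 0.43 (limma adjusted p = 0.0630). Dis3l2, the exonuclease that degrades the uridylated precursors, changed by 0.13 (limma adjusted p = 0.622). In the NuRD complex, a partner of SALL4, 7 of 8 genes were higher, led by Hdac1 (0.27, limma adjusted p = 0.164) and Rbbp4 (0.27, limma adjusted p = 0.198). Of the PI3K-AKT genes upstream of FOXO1, 5 of 8 were higher, and Akt2 was lower by −0.39 without overlap of the groups (limma adjusted p = 0.0948), with Pik3cb at −0.13 (limma adjusted p = 0.544). PLZF opposes mTORC1 activity in spermatogonia. Among genes of that pathway, its inhibitors Tsc1 and Tsc2 were at −0.49 (limma adjusted p = 0.153) and 0.27 (limma adjusted p = 0.186). The signals of Akt2 and Tsc1 were weak (young means −3.88 and −3.43 in relative log2 signal), though well above background on all arrays.

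The direction of the small values of Zbtb16, Lin28a and Uchl1 depended on how arrays were scaled. The first 4 scalings below shift all genes of an array alike, and quantile scaling does not. The median gene changed by 0.11 with the 75th percentile, 0.26 with the array median, 0.07 with no scaling and −0.35 with spike-in RNA, the control RNA added at labelling. Epcam was 0.35 above the median gene under each of these 4, and 0.27 above it with quantile scaling. With quantile scaling the median gene stayed at 0.11, while Zbtb16 moved relative to it from −0.20 to −0.07 and Uchl1 from 0.02 to −0.18. Relative to the median gene, with the 75th percentile, Utf1 was at −0.33, Nanos3 at −0.32, Zbtb16 at −0.20, Lin28a at −0.16 and Uchl1 at 0.02. With spike-in RNA Nanos3 (−0.67, limma adjusted p = 0.0430) and Utf1 (−0.68, limma adjusted p = 0.0452) were called lower, as 10.4% of all genes were called, and Epcam was at 0.00. The spike-in scaling rested on only 4 control probes. Epcam was called higher with median scaling (0.61, limma adjusted p = 0.0338, 13% of all genes called), with normexp background correction and the 75th percentile (0.43, 0.0354, 6.15%) or quantiles (0.37, 0.0362, 2.47%), with trend and robust variances (0.46, 0.0467, 2.64%) and with array weights (0.46, 0.00406, 44.6%). Quantile scaling called 0 of the 6 genes and 0.615% of all genes, and leaving out young replicate 2 called 0 of 6 and 0.00977%. At an adjusted p under 0.1 Epcam alone of the 6 was called, beside 16.4% of all genes.

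**Figure D4:**
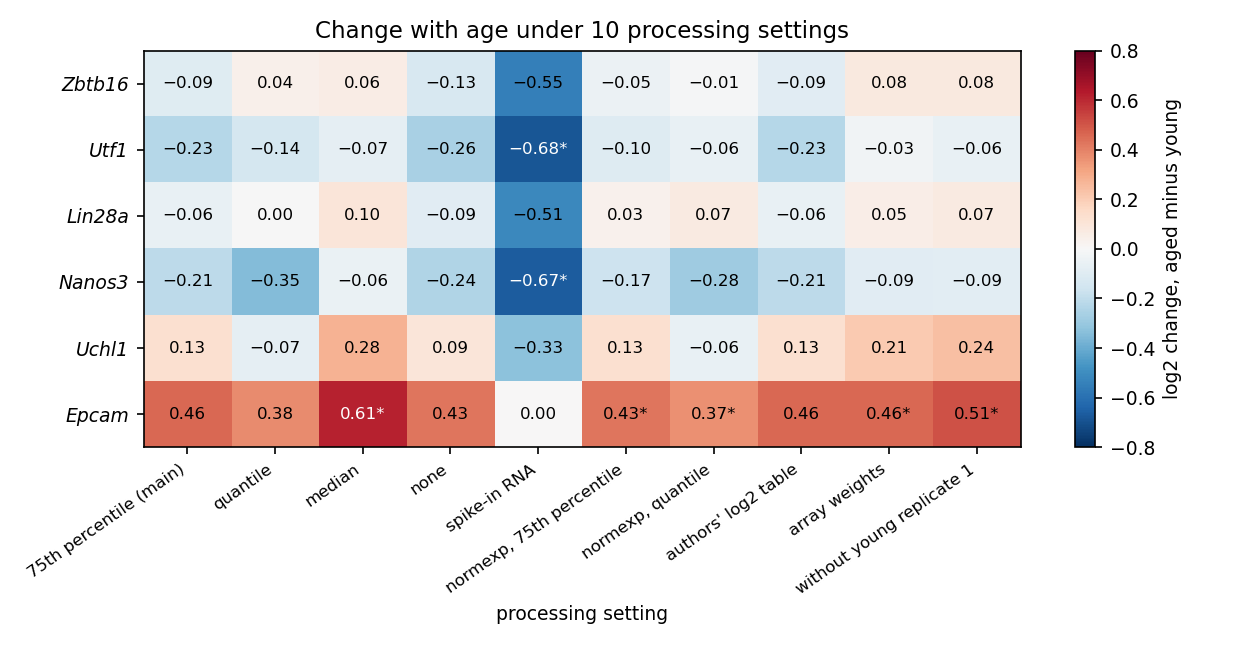
Change with age of the 6 tested regulators (rows) under 10 processing settings (columns), colour and number giving the log2 change, aged minus young, and an asterisk a limma adjusted p under 0.05. Epcam is at 0.37 or more under all settings but spike-in RNA, Nanos3 and Utf1 are below 0 in every column, and the signs of Zbtb16, Lin28a and Uchl1 vary.

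The gene whose signal followed each regulator most closely over the 8 arrays was found among 10233 tested genes by Pearson's r, as a description with no test. It was Apobec2 for Zbtb16 (r = 0.98), Pccb for Utf1 (r = 0.99), Zfp799 for Lin28a (r = 0.97), Sik1 for Nanos3 (r = 0.96), Rtcb for Uchl1 (r = 0.99) and Rps6ka3 for Epcam (r = 0.99). All arrays share a slide, and in the first 5 of these regulators young replicate 1 was the highest array. Rps6ka3 changed by 0.48 (limma adjusted p = 0.0561). Epcam, Tekt2, Col3a1 and Adgre1 share that adjusted p, since the adjustment can give genes of different p the same value.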

How the data were processed

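Per the file headers, arrays were read with Agilent Feature Extraction 10.7.3.1 (12.5 in the submitters' processing notes), with probes designed on rn4. Its deposited processed signal is a linear intensity after background and spatial correction, unscaled across arrays. Deposited median spot and background signals are raw intensity values, and its marks for background, saturation and outliers are 0 or 1. The authors' series matrix holds log2 values centred on each probe's median. It served as an alternative, and its scaling between arrays stayed unknown.

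Outlier and control spots were dropped, each array's 75th percentile was subtracted from log2 processed signals, and spots of a probe were averaged. Accessions matched to RefSeq (GRCr8) named 17998 of 30367 probes. The filter required 0.5 or more of a probe's spots above background in each array of either age, and 2 values per age. The brightest probe stood for a gene. Ages came from the labels. Groups were compared with limma 3.58.1 (lmFit, eBayes, two-sided, R 4.3.3), with Benjamini-Hochberg adjustment over 10236 genes, and with exact permutation tests of single genes. The script was tested on simulated data. The number of arrays limits the precision. Alternatives covered scaling, background correction (normexp, offset 50, on median signals), filters, probes, variance model, weights, replicate block, threshold and left-out arrays.

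The members and lists were chosen with earlier results of these data known. The naming rule took all members, Cd9, Ddx4, the called genes of each list or else the 2 with the smallest p, and each member's closest gene. Dazl, Ccna1, Pgk2, Ldhc, Hspa2, Nanos2, Foxo3, Foxo4, Lum, Pax7, Tspan8, Thy1, Clu, Tnp1, Prm1, Tnp2, Odf2 and the Sertoli genes below the filter were chosen after their values were seen. So were Ret, Inhba, Dhh, Cyp11a1 and Cdh5.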

Additional observations from a re-analysis of the deposited data

Results flagged for a closer look

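In Zbtb16, young replicate 1 was far from the other young arrays, at −1.72 against −2.46 to −2.37. Its gap to the nearest array was 0.89 of the group's range, above Dixon's 95% critical value for 4 samples. This was 1 of 18 groups examined (9 probes of 7 genes in 2 age groups), and chance alone flags about 1 in 20 such groups.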

How the results depend on the processing

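The number of genes called moved from 67 to 1330 with median scaling, 1067 with spike-in scaling, 630 and 253 with normexp correction and the 75th percentile or quantile scaling, 270 with trend and robust variances, 4564 with array weights and 1674 at a threshold of 0.1. It was 0 when arrays were left unscaled (1389 at an unadjusted p under 0.05), no filter on dim probes (3339), unnamed probes tested too (4929) and the replicate block (3231). Leaving out 1 array gave 0 to 3776 genes, the highest without young replicate 1 (unadjusted 1951 to 5049). The number of member genes called was 1, Epcam, with median scaling, both normexp settings, trend and robust variances, array weights and a threshold of 0.1, and 2 with spike-in scaling. It was 0 or 1 when an array was left out, 1 only without young replicate 1. Zbtb16 turned to 0.0392 with quantile scaling, 0.0611 with median scaling and 0.0798 with array weights, and ran from −0.169 to 0.0776 with 1 array left out, above 0 only without young replicate 1. Lin28a turned to 0.0967 with median scaling, 0.0329 and 0.0707 with normexp (75th percentile, quantile) and 0.0543 with array weights, and ran from −0.147 to 0.0718 with 1 array left out, likewise. Uchl1 turned to −0.0737, −0.0574 and −0.330 with quantile, normexp and quantile, and spike-in scaling. Median and spike-in scaling shift all genes of an array alike and left each value relative to the median gene as it was. For the other settings the cause was not tested. Nanos3 and Utf1 kept a value below 0 and Epcam one above 0 under every alternative run.

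Replicate numbers are shared by the groups, but only aged replicate 3 correlated best with the array of its own number in the other group. The replicate block gave Epcam an adjusted p of 0.0842 and no call among the members. Signals near background limit Neurog3 most, and the weaker Lin28a probes.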
